A study of Mus musculus with 23 samples.

Results

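The 9 genes described here belong to the tumor necrosis factor (TNF) superfamily. They comprise the ligands *Tnf*, *Lta*, *Ltb*, *Tnfsf4*, *Tnfsf9* and *Tnfsf15* and the receptors *Fas*, *Tnfrsf1a* and *Tnfrsf1b*. They were chosen by name, and their 10 probes were found through the RefSeq accessions printed in the array files, out of 26014 genes tested in all. RNA came from bone marrow-derived macrophages (BMDM) of male C57BL/6 mice (C57BL/6J in the methods) aged 10 to 14 weeks, which were wt, lacked MK2 (MK2-/-) or lacked MK2 and MK3 together (MK2/3-/-). Cells of the femur were differentiated for 9 days in M-CSF at 10 ng/ml. Each genotype was then studied in culture medium, the solvent of LPS, and after 120 min (2 h) of LPS at 100 ng/ml. The knockouts are deletions in the whole animal, and wt mice were littermates. The 6 groups held 4 arrays each, except that unstimulated MK2-/- BMDM had 3, giving 23 arrays with a sample each. Replicate 3 of MK2-/- BMDM in medium belongs to the culture of LPS replicate 4, not to that of LPS replicate 3. According to the methods, the replicates were independent experiments.

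Ligands of this family are mostly membrane proteins that act as trimers, and some of them, TNF among these, are cut off by a protease and act at a distance. Their receptors either carry a death domain, as TNFR1 (*Tnfrsf1a*) and Fas do, or recruit TRAF adaptors directly, as TNFR2 (*Tnfrsf1b*) does. In macrophages LPS is sensed by Toll-like receptor 4, which activates NF-kB and the p38 MAP kinase cascade. MK2 and MK3 are protein kinases directly below p38, and MK2 is known for releasing the *Tnf* mRNA from repression by tristetraprolin, a protein that binds its AU-rich element.

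*Tnf*, *Lta* and *Ltb* are neighbours on chromosome 17, and *Tnf* and *Lta* rose with LPS whereas *Ltb* did not pass the test. Their upstream sequences are printed for that reason. RefSeq promoter sequences (build GRCm38.p6) were matched for 7 of the 9 genes, and the 250 bases before the annotated start are given, 5′ to 3′ on the strand of the gene. *Tnf* lies on the minus strand with this stretch at chr17:35202008-35202257, *Lta* on the minus strand at chr17:35205352-35205601 and *Ltb* on the plus strand at chr17:35194257-35194506. Capitals mark matches to a kappaB consensus or to TGANTCA, the AP-1 motif, each searched on both strands, and to TATAAA on the strand of the gene.
Tnf: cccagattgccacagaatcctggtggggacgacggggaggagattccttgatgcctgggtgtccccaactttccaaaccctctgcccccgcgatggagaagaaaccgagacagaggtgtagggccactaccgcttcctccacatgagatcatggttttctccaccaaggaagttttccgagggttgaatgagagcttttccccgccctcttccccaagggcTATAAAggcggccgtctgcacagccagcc
Lta: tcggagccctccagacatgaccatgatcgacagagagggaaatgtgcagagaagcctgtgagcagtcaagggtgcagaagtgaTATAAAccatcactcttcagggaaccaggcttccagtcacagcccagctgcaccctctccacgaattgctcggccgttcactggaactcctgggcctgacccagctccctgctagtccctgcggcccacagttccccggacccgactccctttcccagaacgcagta
Ltb: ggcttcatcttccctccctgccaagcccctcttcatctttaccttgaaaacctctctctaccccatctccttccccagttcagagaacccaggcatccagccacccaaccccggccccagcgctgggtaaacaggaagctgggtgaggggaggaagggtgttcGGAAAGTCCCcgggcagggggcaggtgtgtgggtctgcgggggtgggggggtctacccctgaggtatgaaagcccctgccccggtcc
TATAAA was found 29 to 24 bases before the start of *Tnf* and 167 to 162 bases before that of *Lta*. The kappaB consensus was matched once among the 7 genes, as GGAAAGTCCC 87 to 78 bases before the start of *Ltb*. These are the letters on the strand of the gene, and the match to the consensus is on the opposite strand. TGANTCA was matched once, 211 to 205 bases before the start of *Fas*. Of the 32851 promoters in the table, 7.25% held the kappaB consensus, 6.75% TGANTCA and 7.59% TATAAA in this window, with no match overlapping another in the sequences printed. A match describes letters in this window and says nothing about binding in these cells.

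All 8 macrophage markers with a probe, among them *Csf1r* and *Adgre1*, were well above background on all 23 arrays. The T cell genes *Cd3d* and *Cd8a* and the B cell gene *Pax5* were on none, whereas *Cd3e*, *Lck*, *Cd28* and *Cd79b* were on all 23. The summed signal of 6 stromal markers ranged from 595 to 105900 and that of 6 neutrophil markers from 2961 to 18220, each spanning most of its range within single groups, and their part in the results was not tested. *Mapkapk2*, which encodes MK2, was lower than in wt BMDM by 3.31 in MK2-/- and by 3.50 in MK2/3-/- BMDM in medium on the log2 scale, and *Mapkapk3* after LPS was lower by 3.30 in MK2/3-/- BMDM alone (log2 difference -0.03 in MK2-/- BMDM). In the other condition the log2 differences from wt were -2.81 and -3.01 for *Mapkapk2* after LPS, and -1.62 for *Mapkapk3* in MK2/3-/- BMDM in medium. The *Mapkapk2* signal still rose with LPS in the knockouts, by 3.05 in MK2-/- and 3.04 in MK2/3-/- BMDM. Between 47.5% and 69.1% of the probes were well above background per array, the highest share being that of replicate 2 of MK2/3-/- BMDM in medium, 1 of 2 arrays whose headers held no fitted background gradient. After LPS the share was 56.19% to 60.81% in wt, 49.6% to 52.48% in MK2-/- and 48.46% to 55.45% in MK2/3-/- BMDM. The part of this difference in the genotype comparisons was not tested. Each genotype was hybridized on a slide of its own and LPS arrays took 1 row of every slide, so that slide and genotype, as well as row and treatment, cannot be told apart.

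**Figure D1:**
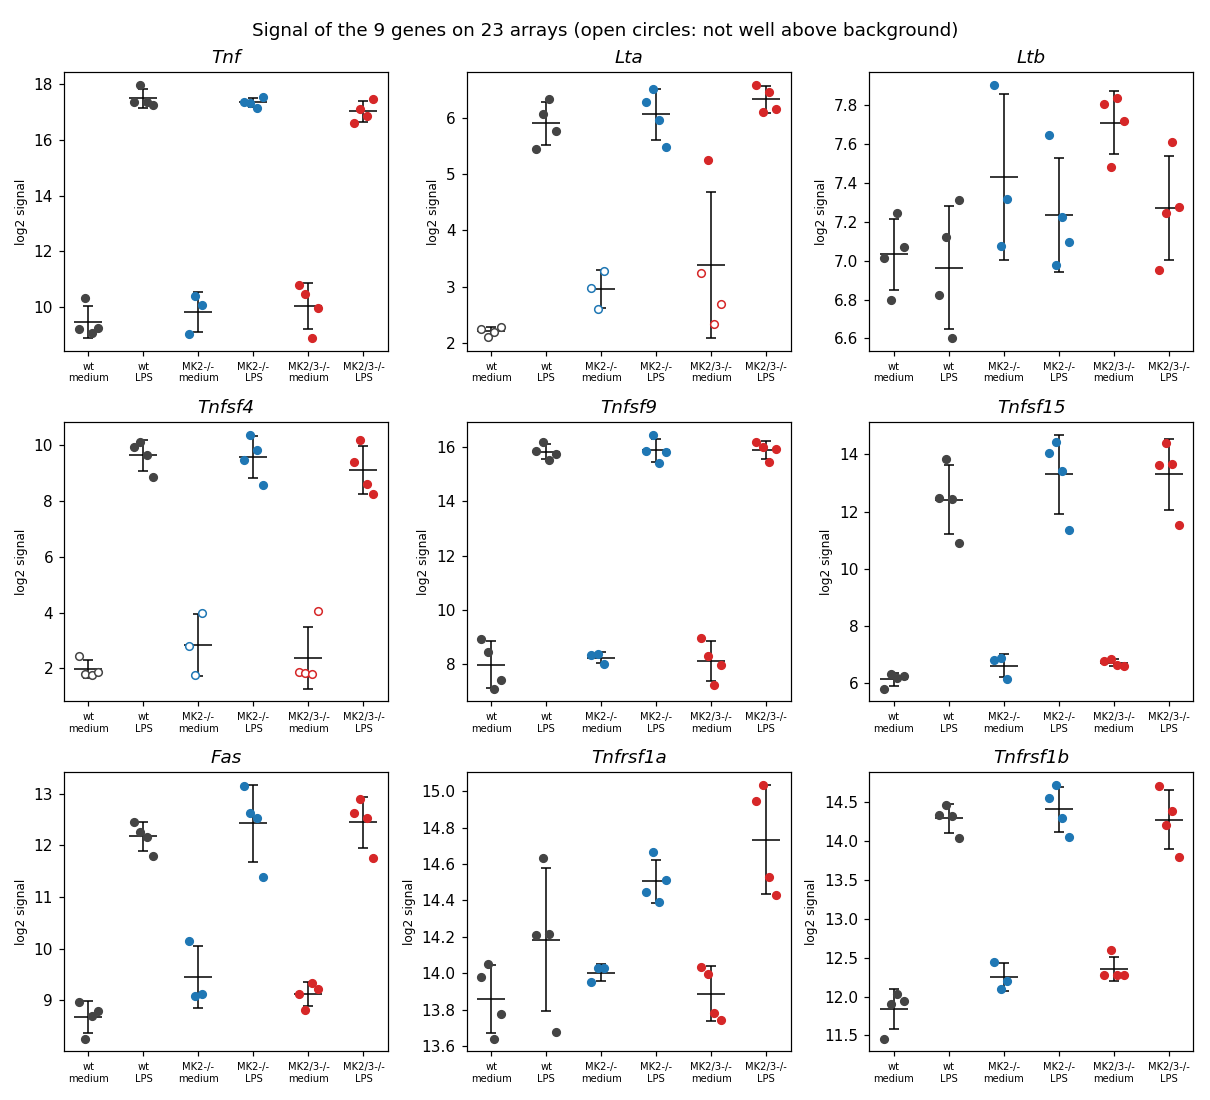
Log2 signal (vertical axes, quantile normalized) of the 9 genes on each of the 23 arrays, with the genotype and treatment groups on the horizontal axes; bars give the mean ± SD, and open circles mark signals not well above background. 7 genes, namely *Tnf*, *Lta*, *Tnfsf4*, *Tnfsf9*, *Tnfsf15*, *Fas* and *Tnfrsf1b*, stand higher after LPS in every genotype, whereas the *Ltb* groups overlap in wt BMDM.

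In wt BMDM, LPS raised 5 of the 6 ligands and 2 of the 3 receptors within 2 h. The 5 of these measured above background on both sides rose from 5.49-fold for *Tnfrsf1b* to 259-fold for *Tnf*. For *Lta* and *Tnfsf4* only lower bounds under the main processing are known. *Ltb* and *Tnfrsf1a* did not pass the test. Over all genes tested, 8.26% were called higher and 8.89% lower in wt BMDM, and the median log2 difference was 3.71 over the 9 genes and 0.01 over all genes. In RNA of whole cultures, more expressing cells and more RNA per cell cannot be told apart. Values below are log2 signals, differences are log2 differences with the SE of the fit, and a call is an adjusted p under 0.05 in limma over all genes.

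*Tnf* (NM_013693) encodes the founding cytokine of the family. In wt BMDM its signal was 9.20, 10.35, 9.09 and 9.24 in medium and 17.35, 17.98, 17.37 and 17.24 after LPS, in the order of the replicates. Replicate 2 was the highest of its group under both conditions, and the groups were far apart. The difference was 8.02 ± 0.37, or 259-fold (adjusted p = 8.97e-12). *Tnf* of MK2-/- BMDM stood at 9.03, 10.41 and 10.07 in medium and at 17.35, 17.33, 17.15 and 17.53 after LPS. The rise was 7.51 ± 0.40, or 182-fold. MK2/3-/- BMDM gave 10.80, 10.48, 8.90 and 9.97 in medium and 16.62, 17.12, 16.86 and 17.47 after LPS. The rise was 6.98 ± 0.37, or 126-fold, and LPS and medium arrays did not overlap in any genotype. The *Tnf* probe was printed 10 times per array, with a median SD between spots of 0.14 after LPS and 0.15 in medium, which is below the SD of 0.16 to 0.83 between the arrays of a group.

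*Lta* (NM_010735) encodes lymphotoxin alpha, which shares the receptors of TNF. No wt medium array showed it well above background, with signals between 2.10 and 2.28, and it reached 5.45, 6.07, 6.35 and 5.78 after LPS. This amounts to an at least 5.57-fold rise, for which dimmer medium signals were raised to the lowest signal that the same array still marked as well above background (adjusted p = 2.62e-06 for the measured difference of 3.71 ± 0.42). The MK2-/- values after LPS were 6.29, 6.52, 5.98 and 5.49, at least 5.71-fold above medium (adjusted p = 5.00e-05). Those of MK2/3-/- BMDM were 6.60, 6.11, 6.47 and 6.17, and the medium values were 3.24, 5.26, 2.34 and 2.68. Only the second of these medium arrays was well above background for *Lta*, and it is the array without a gradient fit named above. The measured difference in MK2/3-/- BMDM was 2.95 ± 0.42 (adjusted p = 2.70e-05), and leaving out that medium array, so that none was above background, the rise was at least 5.31-fold. The 10 spots of the *Lta* probe had a median SD of 0.15 after LPS and of 0.60 in medium. With normexp background correction, which raises low signals, the log2 difference in wt BMDM was 0.88 and was still called. It lies below the stated bound, which is 2.48 on the log2 scale and holds only for the main processing.

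*Tnfsf4* (NM_009452) encodes OX40 ligand, a costimulator of T cells. It was not well above background on any array in medium, with signals from 1.76 to 4.05 over the genotypes, and was so on every array after LPS. The wt values after LPS were 9.93, 10.09, 9.63 and 8.85, those of MK2-/- BMDM 9.46, 10.36, 9.83 and 8.57, and those of MK2/3-/- BMDM 9.41, 10.16, 8.61 and 8.25. The rise was at least 73.1-fold in wt (adjusted p = 5.06e-09), at least 64.0-fold in MK2-/- (adjusted p = 9.67e-08) and at least 47.1-fold in MK2/3-/- BMDM (adjusted p = 2.15e-08). With normexp background correction the log2 differences were 3.70, 3.52 and 3.19 and were still called. They lie below the stated bounds, which are 6.19, 6.00 and 5.56 on the log2 scale and hold only for the main processing. In every genotype the LPS array numbered 4 was the lowest.

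*Tnfsf9* (NM_009404) encodes the ligand of 4-1BB, another costimulatory receptor. In wt BMDM it went from 8.93, 8.44, 7.08 and 7.39 in medium to 15.88, 16.18, 15.52 and 15.75 after LPS. The difference was 7.87 ± 0.37, or 234-fold (adjusted p = 1.22e-11). Medium values were 8.31, 8.37 and 7.998 with MK2 deleted, and 8.96, 8.30, 7.21 and 7.96 with MK2 and MK3 deleted. The rise in MK2-/- BMDM was 7.67 ± 0.40, or 204-fold, and that in MK2/3-/- BMDM was 7.79 ± 0.37, or 221-fold. After LPS all 12 arrays lay between 15.43 and 16.46, with the genotypes interleaved.

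*Tnfsf15* (NM_177371) encodes TL1A, the ligand of death receptor 3, and was the most variable of the 9 genes after LPS. In wt BMDM it was 5.81, 6.32, 6.16 and 6.25 in medium and 12.49, 13.83, 12.44 and 10.88 after LPS. The SD was 0.23 in medium and 1.20 after LPS, and the rise was 6.27 ± 0.64, or 77.4-fold (adjusted p = 6.16e-07). MK2-/- BMDM went from 6.82, 6.87 and 6.14 to 14.04, 14.44, 13.41 and 11.34 with LPS, a rise of 6.70 ± 0.69 or 104-fold. MK2/3-/- BMDM went from 6.78, 6.84, 6.62 and 6.60 to 13.61, 14.41, 13.66 and 11.53, a rise of 6.59 ± 0.64 or 96.6-fold. The lowest LPS array of each genotype was again the one numbered 4.

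*Ltb* (NM_008518) encodes lymphotoxin beta, which anchors lymphotoxin alpha in the membrane, and was the ligand not called in any genotype. Its wt signals were 7.01, 6.80, 7.25 and 7.07 in medium and 6.82, 7.12, 6.60 and 7.32 after LPS. These overlap, and the difference was -0.07 with a 95% interval of -0.49 to 0.35 (adjusted p = 0.909). *Ltb* of MK2-/- BMDM was 7.91, 7.08 and 7.32 in medium and 7.65, 6.98, 7.22 and 7.09 after LPS, with a difference of -0.20. *Ltb* of MK2/3-/- BMDM was 7.81, 7.48, 7.84 and 7.72 in medium and 6.95, 7.24, 7.61 and 7.28 after LPS. The difference there was -0.44 with an interval of -0.86 to -0.02, and it did not pass the adjustment (adjusted p = 0.124).

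Among the receptors, *Fas* (NM_007987), whose product triggers apoptosis on binding Fas ligand, was 8.97, 8.25, 8.70 and 8.79 in wt medium arrays and 12.46, 12.27, 12.17 and 11.80 after LPS. The rise was 3.50 ± 0.32, or 11.3-fold (adjusted p = 1.84e-07), and the groups did not overlap. *Fas* of MK2-/- BMDM rose from 10.14, 9.07 and 9.12 to 13.15, 12.64, 12.54 and 11.38, by 2.98 ± 0.35 or 7.90-fold. That of MK2/3-/- BMDM rose from 9.13, 8.81, 9.34 and 9.22 to 12.63, 12.89, 12.52 and 11.75, by 3.33 ± 0.32 or 10.0-fold.

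*Tnfrsf1b* (NM_011610) encodes TNFR2, which binds membrane-bound TNF in particular. Its wt values were 11.46, 11.91, 12.04 and 11.94 in medium and 14.34, 14.46, 14.33 and 14.03 after LPS, a rise of 2.46 ± 0.19 or 5.49-fold (adjusted p = 1.23e-08). In MK2-/- BMDM it rose from 12.45, 12.09 and 12.21 to 14.56, 14.72, 14.30 and 14.05, by 2.16 ± 0.20 or 4.46-fold. In MK2/3-/- BMDM it rose from 12.28, 12.59, 12.27 and 12.27 to 14.71, 14.21, 14.38 and 13.80, by 1.92 ± 0.19 or 3.79-fold. LPS and medium arrays were apart in each genotype.

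**Figure D2:**
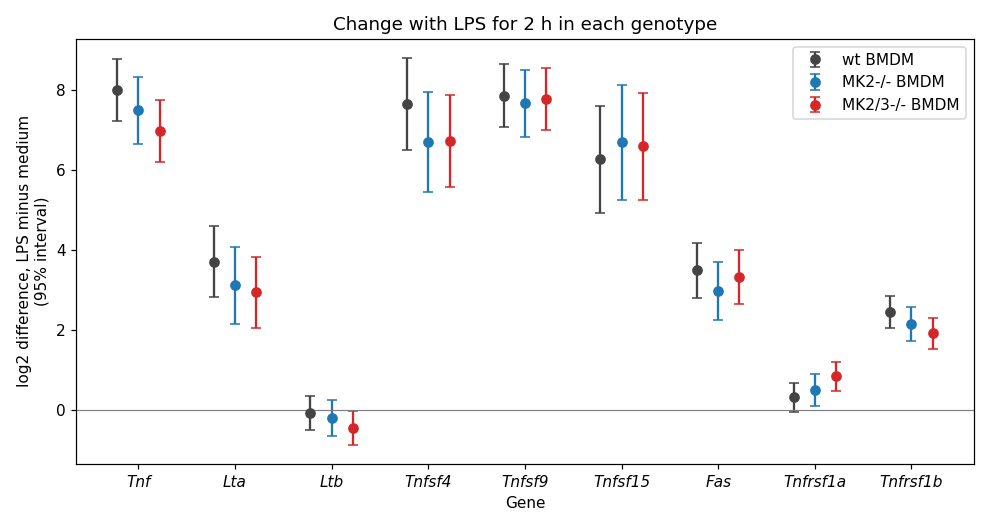
Log2 difference between LPS and medium (vertical axis) for each of the 9 genes (horizontal axis) in wt, MK2-/- and MK2/3-/- BMDM; points are estimates of the fit and bars 95% intervals. The intervals of the genotypes overlap for every gene, those of *Ltb* reach 0 in wt and MK2-/- BMDM, and *Tnfrsf1a* has estimates of 0.32, 0.50 and 0.85.

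Of the 9 genes, 7 were called higher with LPS in MK2-/- BMDM and 8 in MK2/3-/- BMDM, and none was called lower in any genotype. Over all genes, 8.48% were called higher and 10.1% lower in MK2-/- BMDM, and 11.9% higher and 12.9% lower in MK2/3-/- BMDM. The median log2 difference of the 9 genes was 3.12 in MK2-/- and 3.33 in MK2/3-/- BMDM, beside -0.01 and -0.02 over all genes. The count differs by *Tnfrsf1a*.

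*Tnfrsf1a* (NM_011609) encodes TNFR1, the main signalling receptor for soluble TNF. In wt BMDM it was 13.98, 14.05, 13.64 and 13.77 in medium and 14.21, 14.63, 14.22 and 13.68 after LPS. These overlap, and the difference was 0.32 ± 0.17 (adjusted p = 0.255). In MK2-/- BMDM it was 13.95, 14.03 and 14.03 in medium and 14.45, 14.67, 14.39 and 14.51 after LPS, a difference of 0.50 ± 0.19 that did not pass (adjusted p = 0.0723) although all LPS arrays lay above all medium arrays. In MK2/3-/- BMDM it rose from 14.03, 14.00, 13.78 and 13.74 to 14.94, 15.03, 14.53 and 14.43, by 0.85 ± 0.17 or 1.80-fold (adjusted p = 0.00107). The call in MK2-/- BMDM depended on the processing. The difference passed with the cultures as a block (0.51, adjusted p = 0.0255) and with scaling to the 75th percentile (0.93, adjusted p = 0.00769), and over all alternatives its adjusted p ran from 0.00769 to 0.177. It also passed without replicate 2 (adjusted p = 0.0443) or replicate 4 (adjusted p = 0.0357) of the wt LPS arrays, which enter it only through the shared spread.

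Of all 9 genes, *Tnfrsf1a* was the only one with more than 1 probe. The second probe, with a single spot per array, differed between LPS and medium by 0.26 ± 0.20 in wt BMDM, 0.56 ± 0.21 in MK2-/- and 0.95 ± 0.20 in MK2/3-/- BMDM. The probe used, with 10 spots and a median SD between spots of 0.16 after LPS, gave 0.32, 0.50 and 0.85. In a fit over all probes both were called in MK2/3-/- BMDM alone (adjusted p = 0.00103 for the probe used and 0.00114 for the second). Both probes read the same 23 RNA samples and are no independent replicates.

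**Figure D3:**
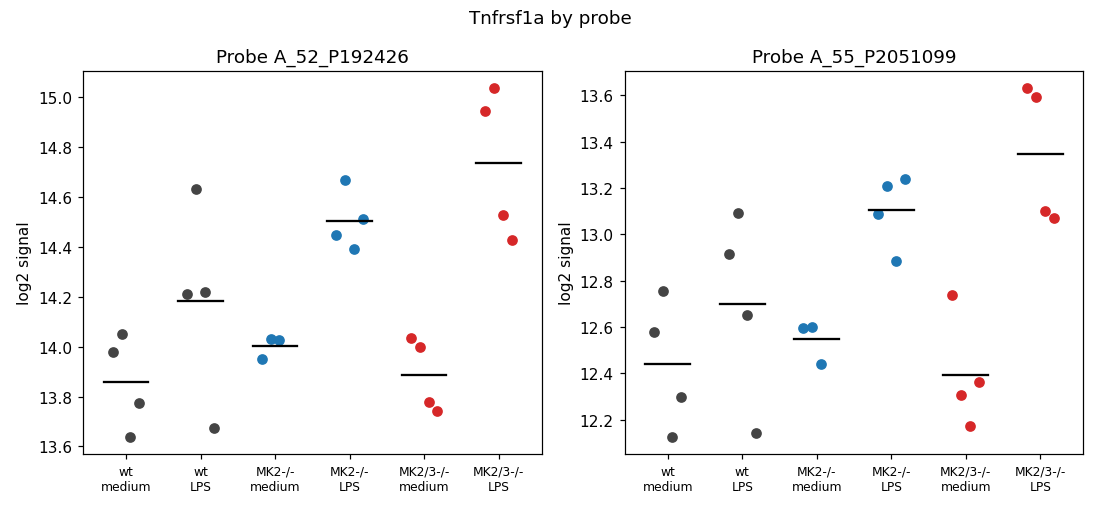
Log2 signal (vertical axes) of both *Tnfrsf1a* probes on the 23 arrays, by genotype and treatment (horizontal axes); points are arrays and lines group means. With either probe the group mean after LPS is lowest in wt and highest in MK2/3-/- BMDM, while the medium groups lie together.

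After LPS, none of the 9 genes was called between genotypes by limma, and at an unadjusted p under 0.05 there was 1, *Tnfrsf1a* in MK2/3-/- against wt BMDM. Over all genes 0.0308% were called for MK2-/- against wt, 1.64% for MK2/3-/- against wt and 0.161% for MK2/3-/- against MK2-/- BMDM. The methods' t-test called none of the 9 either, with or without adjustment. Any pair of these 3 comparisons shares the arrays of a group, so their values are not independent of each other.

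*Tnf* after LPS averaged 17.49 ± 0.34 (SD, n = 4) in wt BMDM, 17.34 ± 0.16 in MK2-/- and 17.02 ± 0.37 in MK2/3-/- BMDM. The MK2-/- difference from wt was -0.14 with a 95% interval of -0.92 to 0.63, and its sign was not stable, turning to 0.02 without replicate 2 of the wt LPS arrays and to 0.09 with scaling to the 75th percentile. The MK2/3-/- difference was -0.47 (72.3% of the wt signal) with an interval of -1.24 to 0.31. The LPS groups overlapped, and the absence of a call does not show that the levels were alike.

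*Tnfrsf1a* was higher than in wt BMDM after LPS by 0.32 in MK2-/- and by 0.55 in MK2/3-/- BMDM, with intervals of -0.04 to 0.69 and 0.19 to 0.91. All 4 MK2/3-/- arrays lay above the wt mean, but the groups overlapped, since replicate 2 of the wt arrays stood at 14.63 (adjusted p = 0.134, exact permutation p = 0.0857). Without that array the difference was 0.70 and was called (adjusted p = 0.0409). With the culture number as a fixed block it was 0.55 and called as well (adjusted p = 0.0327). The labels do not say that this number marks the same experiment across genotypes.

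For the other members the differences from wt BMDM after LPS ran from -0.52 (*Tnfsf4* in MK2/3-/- BMDM, interval -1.67 to 0.63) to 0.90 (*Tnfsf15* in MK2-/- BMDM, interval -0.44 to 2.23). *Tnfsf15* in MK2/3-/- BMDM was 0.89 above wt with an interval of -0.44 to 2.23. With the culture number as a fixed block the SE of both *Tnfsf15* differences fell from 0.64 to 0.46. Neither was called (adjusted p = 0.330 for MK2/3-/- and higher for MK2-/- BMDM). *Tnfsf9* had differences of 0.07 in both knockouts, within -0.71 to 0.85. *Tnfrsf1b* differed by 0.12 and -0.02, within -0.41 to 0.51. *Fas* differed by 0.25 and 0.27, *Ltb* by 0.27 and 0.31, and *Lta* by 0.16 and 0.42. *Tnfsf15* had the widest interval of the 9 genes, although its spread was shared with medium arrays, which varied less than the LPS arrays compared. Between MK2/3-/- and MK2-/- BMDM the differences ran from -0.45 for *Tnfsf4* to 0.27 for *Lta*.

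**Figure D4:**
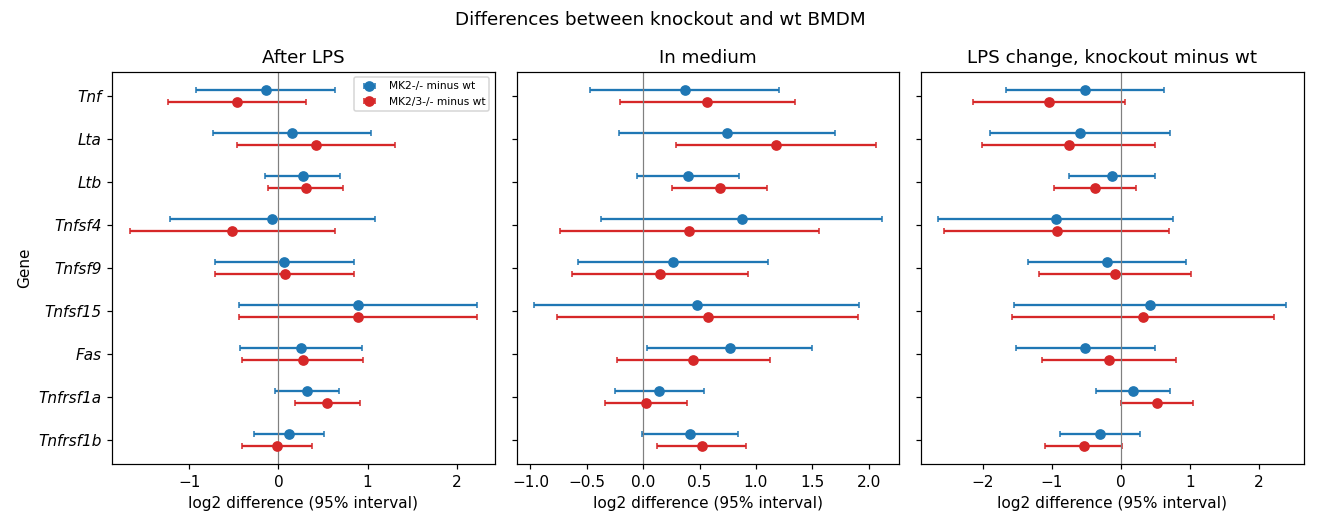
Log2 differences (horizontal axes, points with 95% intervals) of MK2-/- and MK2/3-/- from wt BMDM for the 9 genes (vertical axis), after LPS, in medium, and for the change with LPS. No difference passed the adjustment; in medium all estimates lie above 0, those of *Lta* and *Tnfsf4* at signals mostly not well above background, and for the change with LPS only those of *Tnfsf15* and *Tnfrsf1a* do.

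In medium, too, no member was called by limma. The share of all genes called was 0.00769% for MK2-/- against wt, 0.0769% for MK2/3-/- against wt and 0.0461% for MK2/3-/- against MK2-/- BMDM. At an unadjusted p under 0.05 there were 1, 3 and 0 members. Of the 9 genes, 7 were well above background on all 11 medium arrays. Their point estimates were above 0 in both knockouts, from 0.14 for *Tnfrsf1a* to 0.77 for *Fas* in MK2-/- BMDM and from 0.03 for *Tnfrsf1a* to 0.68 for *Ltb* in MK2/3-/- BMDM, where the second *Tnfrsf1a* probe gave -0.04. The estimates of *Lta* and *Tnfsf4* were also above 0 but compare signals not well above background, apart from *Lta* on 1 array, and carry no direction. Of all genes, 55.6% and 55.4% had an estimate above 0. The medians of the 7 genes were 0.40 and 0.52, and those of all genes 0.03 in both. In the same comparisons the median was 0.69 and 0.73 over 6 neutrophil markers, 0.59 and 0.40 over 7 dendritic cell markers and -1.40 and -1.31 over 6 stromal markers, none of them called, and their part in these values was not tested. With normexp background correction 8 of the 9 were above 0 in MK2/3-/- BMDM. Both comparisons rest on the same 4 wt arrays, and the 9 genes are read from the same RNA, so this is a description of these arrays.

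*Ltb* in medium was 6.80 to 7.25 in wt and 7.48 to 7.84 in MK2/3-/- BMDM, with all 4 knockout arrays above all 4 wt arrays. The difference was 0.68 ± 0.20 or 1.60-fold, with a lower 95% bound of 0.26 (adjusted p = 0.606, exact permutation p = 0.0286, which is the smallest that 4 against 4 arrays allow, and 0.257 after adjustment over 54 such tests). *Tnfrsf1b* was likewise separated, by 0.52 or 1.43-fold (interval 0.13 to 0.91, adjusted p = 0.906), and *Tnfsf15* by 0.57 (interval -0.77 to 1.91). *Lta* was separated as well, at signals that were not well above background in wt BMDM, so that no fold is given. The difference of these signals was 1.18, and 0.55 without both arrays that lack a gradient fit. These 4 of 9 genes stand beside 2.52% of all genes whose MK2/3-/- arrays all lay above the wt arrays.

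For MK2-/- against wt BMDM in medium, 3 of the 9 genes were separated in this way, beside 5.13% of all genes. *Fas* was 9.07 to 10.14 in MK2-/- and 8.25 to 8.97 in wt BMDM, a difference of 0.77 ± 0.35 or 1.70-fold (unadjusted p = 0.0416, exact permutation p = 0.0286, and 0.257 after adjustment over the 54 tests). *Tnfrsf1b* was separated by 0.41 (interval -0.01 to 0.84), and *Lta* at signals not well above background. None of these passed the adjustment of limma.

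The test of whether the response to LPS itself differed between genotypes called no member. Over all genes, 0.00384% were called for MK2-/- against wt, 0.0115% for MK2/3-/- against wt and 0% for MK2/3-/- against MK2-/- BMDM. For *Tnf* the rise in MK2/3-/- BMDM was smaller than in wt BMDM by 1.04, with an interval of -2.13 to 0.06 (unadjusted p = 0.0628). This combines a medium difference of 0.57 and an LPS difference of -0.47. For *Tnfrsf1b* the rise was smaller by 0.53 (interval -1.09 to 0.02), and for *Tnfrsf1a* it was larger by 0.52 (interval 0.01 to 1.04, unadjusted p = 0.0475). The adjusted p of every member was close to 1.

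Within the LPS groups, the genes did not vary alike. In all 3 genotypes the array numbered 4 was the lowest for *Tnfsf4*, *Tnfsf15*, *Fas* and *Tnfrsf1b*, which makes 4 of the 9 genes, beside 5.17% of all genes. For *Tnfsf15* this array differed from the mean of the other 3 by -2.04 in wt BMDM, -2.63 in MK2-/- and -2.36 in MK2/3-/- BMDM. For *Tnfsf4* the differences were -1.04, -1.31 and -1.14, and for *Fas* -0.50, -1.39 and -0.94. *Tnfsf9* on the same arrays differed from the mean of the others by -0.11, -0.10 and 0.05, and *Tnf* by -0.33, 0.25 and 0.61. The LPS arrays numbered 4 also took the last column of their slides, so that the number and the column cannot be told apart. The labels do not say that a number marks the same day or experiment across genotypes. Deviations from the group means over all genes were correlated between LPS and medium arrays of different genotypes. The median r was 0.13 for the same culture number, above 0.1 in 13 of 22 pairs. It was -0.05 for other numbers, above 0.1 in 13 of 66 pairs. LPS arrays were not compared with each other in this way.

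**Figure D5:**
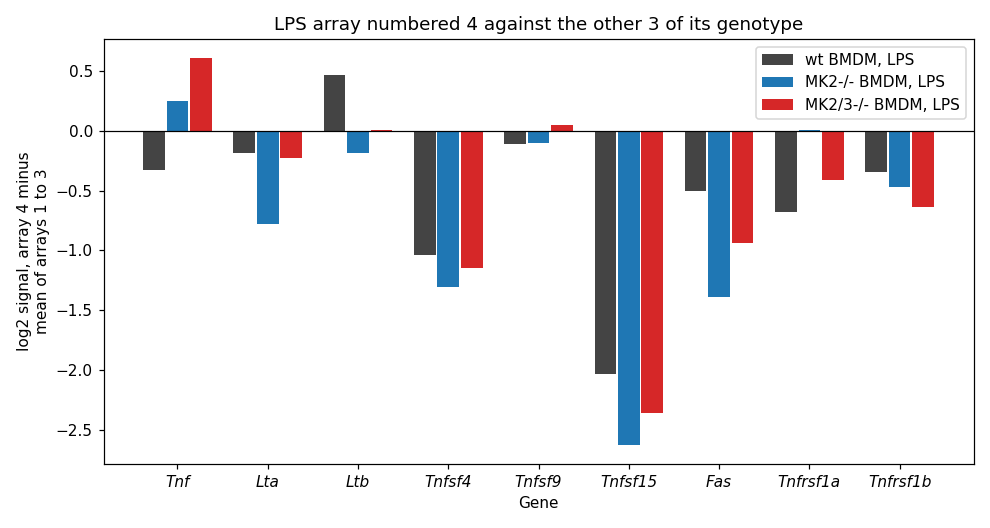
Log2 signal of the LPS array numbered 4 minus the mean of the other 3 LPS arrays of the same genotype (vertical axis, bars) for the 9 genes (horizontal axis). The bars of *Tnfsf15* reach from -2.04 to -2.63, those of *Tnfsf4*, *Fas* and *Tnfrsf1b* are also below 0 in all genotypes, and those of *Tnfsf9* are near 0.

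Of the other TNF superfamily ligands, 11 had a named probe, of which 3 were called higher and none lower with LPS in wt BMDM, with the same counts in both knockouts. *Cd70*, the ligand of CD27, was well above background on 1 of the 11 medium arrays, replicate 4 of MK2/3-/- BMDM, and on all 12 LPS arrays. It rose at least 9.43-fold in wt (adjusted p = 4.21e-06) and at least 12.8-fold in MK2-/- BMDM (adjusted p = 2.01e-06). In MK2/3-/- BMDM the rise was at least 15.4-fold leaving out that medium array, and the measured log2 difference with it was 4.54 (adjusted p = 4.46e-06). With normexp background correction the log2 difference in wt BMDM was 1.34 and still called. This is below the bound in wt BMDM, which is 3.24 on the log2 scale and holds only for the main processing. *Tnfsf10*, which encodes TRAIL, rose by 4.30, 4.43 and 4.70. *Tnfsf18*, which encodes the ligand of GITR, was not well above background in medium and rose at least 1.66-fold in wt BMDM, 2.84-fold in MK2-/- and 7.71-fold in MK2/3-/- BMDM (adjusted p = 0.000842, 2.46e-05 and 6.38e-08). Of these ligands it was called between genotypes. After LPS it averaged 4.16 ± 0.41 (SD, n = 4) in wt BMDM, 5.06 ± 0.61 with MK2 deleted and 6.47 ± 1.15 in MK2/3-/- BMDM, where it was 4.94-fold higher than in wt (log2 difference 2.31 ± 0.41, adjusted p = 0.00639). It was well above background on 3 of the 4 wt and all 4 MK2/3-/- LPS arrays. With only the groups compared in the fit this was not called (adjusted p = 0.267), nor by the methods' t-test (adjusted p = 0.384). With normexp background correction the difference was 0.95 (adjusted p = 0.00921).

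Of 25 other receptors of the family, 1 was called higher and 1 lower with LPS in wt BMDM, 1 and 2 in MK2-/- BMDM, and 4 and 1 in MK2/3-/- BMDM. *Cd40*, a costimulatory receptor of antigen-presenting cells, rose by 7.27 in wt BMDM, 7.68 in MK2-/- and 7.48 in MK2/3-/- BMDM. *Ltbr*, the receptor of lymphotoxin alpha and beta together, changed by -0.84, -0.92 and -0.81. None of the 25 was called between genotypes after LPS, where 1 was higher and 1 lower in MK2/3-/- against wt BMDM at an unadjusted p under 0.05.

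Of 25 genes that act in signalling from TNF receptors, 14 were called higher and 6 lower with LPS in wt BMDM, with a median of 0.72. In MK2-/- BMDM 12 were called higher and 6 lower, and in MK2/3-/- BMDM 14 and 5. *Tnfaip3*, which encodes the NF-kB inhibitor A20, rose by 6.78 in wt BMDM, 6.49 in MK2-/- and 6.66 in MK2/3-/- BMDM. *Cflar*, which encodes the caspase-8 inhibitor c-FLIP, rose by 5.75, 5.73 and 5.66. *Traf1* rose by 5.09, 4.73 and 4.83, and *Nfkbia*, which encodes IkB alpha, by 3.54, 3.32 and 3.32. Between genotypes *Ripk1*, the kinase recruited to TNFR1, was called in MK2/3-/- against wt BMDM after LPS, with 12.29 ± 0.68 and 11.30 ± 0.32 (SD, n = 4 each), a 2.00-fold difference (adjusted p = 0.0397). This call was lost in 15 of 36 alternatives, among them the fit of only the groups compared (adjusted p = 0.435). It was also lost, with adjusted p of 0.0502 to 0.150, on leaving out replicate 1, 3 or 4 of the wt LPS arrays, 2, 3 or 4 of the wt medium arrays, 1 or 2 of the MK2-/- medium arrays, 1 or 2 of the MK2/3-/- LPS arrays, and 3 or 4 of the MK2/3-/- medium arrays. The difference was 0.76 without replicate 2 of the MK2/3-/- LPS arrays.

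Of 10 genes for release and shedding of TNF, 2 were called higher with LPS in wt BMDM and none lower. *Rhbdf2*, which encodes the iRhom2 partner of the TNF-cutting protease, rose by 2.56 in wt BMDM, 2.45 in MK2-/- and 2.48 in MK2/3-/- BMDM. *Adam17*, which encodes this protease, rose by 1.16, 1.05 and 0.89. Its call in wt BMDM was lost with only the groups compared in the fit (adjusted p = 0.0965) and by the methods' t-test (adjusted p = 0.144). Of 12 genes for proteins that bind the *Tnf* mRNA, 5 were called higher and 2 lower in wt BMDM. *Zfp36*, which encodes tristetraprolin, rose by 2.27, 1.86 and 2.27, *Zc3h12a*, which encodes regnase-1, by 3.82, 3.95 and 3.68, and *Rc3h1*, which encodes roquin-1, by 1.31 in wt and 1.18 in MK2/3-/- BMDM. *Zfp36l2*, a relative of *Zfp36*, fell by 4.92 in wt BMDM, by 6.30 in MK2-/- and by 5.64 in MK2/3-/- BMDM. None of the genes of both lists was called between genotypes after LPS. At an unadjusted p under 0.05, 4 of the 12 were lower than wt in MK2-/- and 3 in MK2/3-/- BMDM, with none higher. Between MK2/3-/- and MK2-/- BMDM 2 were higher and 1 lower. Of the 10 release and shedding genes there was none. The absence of a call does not show that levels were alike.

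The 5 genes whose signals followed that of *Tnf* most closely over the 23 arrays, out of 15693 genes compared, were *Tnfaip3* (Pearson r = 0.994), *Jdp2* (0.994), *Ccl3* (0.993), *Il1b* (0.993) and *Dusp2* (0.993). The arrays fall into medium and LPS arrays, all 5 genes rose with LPS as *Tnf* did, and the correlations are given as a description. *Ccl3* rose by 5.88 in wt BMDM, 5.34 in MK2-/- and 5.03 in MK2/3-/- BMDM, and *Il1b* by 8.63, 7.20 and 7.04. *Dusp2* rose by 8.11, 7.40 and 7.75, and *Jdp2* by 5.73, 5.51 and 5.40. None of the 5 was called between genotypes after LPS.

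Beside these results, some marker genes moved with LPS in wt BMDM. Of the 8 macrophage markers *Cd14* rose by 2.04, while *Mertk* and *Fcgr1* fell by 1.69 and 1.27. Of the 7 dendritic cell markers *Zbtb46* rose by 5.49 and *Ccr7* by 3.21, and of the 8 T cell markers *Lck* rose by 2.53. In wt BMDM the dendritic cell markers summed to 1868 to 8364 without and 3599 to 10450 with LPS, and the T cell markers to 2473 to 4581 and 2230 to 4187. The calls of *Lck*, *Ccr7* and *Mertk* each ended on leaving out single wt arrays (adjusted p up to 0.102, 0.0900 and 0.0943), replicate 2 after LPS being among these for all 3. Their part in the values of the 9 genes was not tested.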

How the data were processed

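Agilent one-color arrays of total RNA were read from the scanner files. The intensity deposited for each spot was made by the authors with Feature Extraction 11.0.1.1, and the file headers describe a linear scale after background subtraction, without scaling of arrays to each other. The mark for signals well above background comes from the same deposited files. Spots flagged as outliers and controls were removed, and after log2 transformation the spots of each probe were averaged and all 23 arrays quantile normalized. The deposited table of the authors holds log2 values from the same normalization, centred on every probe's median, with which quantile normalized intensities of all spots, outliers and controls included, had a correlation of 1.00 (median absolute difference 0.000271). RefSeq accessions were named with a table of assembly GRCm38.p6, and for genes with several probes that with the strongest induction by LPS in wt cells was taken.

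One model with 6 groups was fitted to 26014 genes (limma 3.58.1, R 4.3.3, package data.table, version 1.17.8), two-sided, with Benjamini-Hochberg adjustment over all genes at 0.05. Where a sentence gives an adjusted p, it is that of limma unless another test is named. Exact permutation tests of single genes were two-sided over all splits of the arrays, with a smallest p of 0.0286 for 4 against 4 and for 4 against 3. Named genes are the 9 members, the knocked-out genes, the 5 genes most like *Tnf*, and of each other list the genes called between genotypes and the 4 largest LPS changes called in wt BMDM and above background throughout a group. The members, gene lists and alternatives were chosen with earlier results of these data known, and the lists are descriptions. The *Tnfsf13*, *Cd68*, *Ly6g* and *Tpsab1* probes were not matched. The fit across genes was tested on simulated data, and figures drawn with matplotlib 3.10.9. As array signals are continuous, the number of arrays limits the precision. Other scalings, background correction, filters, probe choices, tests, blocks and single arrays left out were tried as alternatives, and the run without both arrays lacking a gradient fit was added after seeing the data.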

Additional observations from a re-analysis of the deposited data

Results flagged for a closer look

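Of 45 sets of 4 arrays, 1 for each of the 9 genes in each group with 4 arrays, 4 held an array that stood apart from the other 3 by Dixon's criterion, and chance alone flags about 1 in 20 sets. *Tnf* in wt medium replicate 2 had a log2 signal of 10.35, with 9.24 as the nearest. *Tnfsf4* in wt medium replicate 1 had 2.43 and in MK2/3-/- medium replicate 4 had 4.05, both not well above background. *Tnfrsf1b* in MK2/3-/- medium replicate 2 had 12.59, on the array without a gradient fit, with 12.28 as the nearest. No interaction of genotype and LPS was called for the 9 genes.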

How the results depend on the processing

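All but 2 of the recomputed counts of called members stayed within 1.5 times the reported count. Both exceptions were for MK2/3-/- against wt BMDM after LPS, where *Tnfrsf1a* made the count 1 with the culture number as a fixed block. Leaving out single arrays gave 0 to 1, the 1 being without replicate 2 of the wt LPS arrays. The *Tnf* difference of MK2-/- from wt BMDM after LPS turned positive with 75th percentile scaling (0.0858), and ran from -0.227 to 0.0205 on leaving out single arrays, where the positive value was without that same array. The cause was not tested. This scaling moved the median of all genes in that comparison from 0.01 to 0.03, and most for LPS in MK2-/- BMDM, from -0.01 to 0.20. Recomputed were differences of named genes with an unadjusted p under 0.05 in the main fit. Those of *Tnf* from wt after LPS and in the interaction were added. Leaving out an array outside the groups compared changes only the shared spread, not the difference, and the counts disregard the size of a difference. Of these recomputed differences, 2174 kept direction and side of the threshold. The call was gained in 11, all of *Tnfrsf1a*, and lost in 45, none of a member. The lost calls were of *Ripk1*, *Tnfsf18*, *Adam17*, *Lck*, *Ccr7*, *Mertk*, *Fcgr1* and, in fits of only the compared groups or by the methods' t-test, *Mapkapk2* and *Mapkapk3*. Medium and LPS arrays of 1 culture correlated in their deviations from the group means with r of 0.0657 to 0.566, over 0.1 in 10 of 11 pairs. Over the 12570 genes well above background on every array, r was 0.359 to 0.776, with a median of 0.493. It was over 0.1 in all 11 pairs. The main fit does not use this pairing, which entered as an alternative. With cultures as a random replicate block (correlation 0.241), *Tnfrsf1a* passed with LPS in MK2-/- BMDM (0.51), no other member changed its call, and the genes whose LPS response was called different in MK2/3-/- from wt BMDM went from 3 to 12. The methods' t-test called 7, 8 and 8 members with LPS in wt, MK2-/- and MK2/3-/- BMDM. Without both arrays lacking a gradient fit the counts with LPS were 7, 7 and 8. For *Lta*, *Tnfsf4*, *Cd70* and *Tnfsf18*, dim medium signals limit the rise to lower bounds, which hold only for the main processing.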
